A study of Mus musculus with 6 samples.

Results

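The relaxin family is a group of small secreted hormones related to insulin, together with the G protein-coupled receptors that bind them. The genes described here are 3 receptors (Rxfp1, Rxfp2 and Rxfp3) and 3 hormones (Insl3, Insl6 and Rln1), 6 of the 54232 genes in the count table, chosen by gene symbol. The choice was made because Rxfp1 was already known to be lower in these knockout libraries, so its values are given as a description and without a p-value. Of the 6 genes, 5 passed the filter on low counts and Rxfp3 did not. RNA was sequenced from whole testes of mice at postnatal day 4 (P4): 3 libraries labelled as conditional knockout (cKO) for Dis3l2 and 3 labelled wild type (WT), all of the strain given as B6D2F1. DIS3L2 is an exonuclease that degrades uridylated RNAs from their 3′ end. The labels used here do not give the Cre driver or the deleted exons, and they do not say whether each library came from a separate animal, and the spread behind each p-value may therefore be partly technical.

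Relaxin acts mainly through RXFP1, which couples to adenylyl cyclase and is known for its effects on connective tissue and blood vessels. INSL3 acts through RXFP2; it is made by Leydig cells, the steroid-producing cells between the testis tubules, and it drives the first phase of testis descent by acting on the gubernaculum. INSL6 is made by male germ cells in mice, and no receptor is assigned to it here. RLN3 acts through RXFP3, chiefly in the brain, and INSL5 acts through RXFP4, chiefly in the gut.

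Library totals were 26126694 to 35390560 assigned reads in cKO and 35750784 to 43265614 in WT. Levels are given as CPM, counts scaled by TMM-adjusted library size, and, wherever genes are compared with each other, as RPKM, the same divided by gene length in kilobases. Dis3l2 itself averaged 31.7 ± 1.65 CPM in cKO and 31.95 ± 0.93 CPM in WT (SD, n = 3 each; edgeR log2 fold change -0.01, SE 0.07, adjusted p = 0.956), so whole-gene counts do not separate the labelled genotypes. The library of cKO replicate 1 stood apart: olfactory receptor genes, most of which are not known to be active in testis and which were picked as a gauge after values were seen, summed to 191.9 CPM there, against 35.0 and 31.6 CPM in the other cKO libraries and 73.8 to 87.6 CPM in WT. Its part in the values of the weakly counted genes was not tested, and the fitted values of those genes are given with and without it.

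Rxfp1, the relaxin receptor, was lower in every cKO library than in every WT library. It had 21, 26 and 21 counts in cKO replicates 1 to 3, against 284, 356 and 246 counts in WT replicates 1 to 3. In CPM these were 0.80, 0.760 and 0.602 in cKO and 6.76, 8.20 and 6.86 in WT. The groups did not overlap, as for 28.2% of all genes kept, and the lowest WT library was 8.45 times the highest cKO library. The means were 0.721 ± 0.105 CPM in cKO and 7.27 ± 0.802 CPM in WT (SD, n = 3 each), a log2 fold change of -3.34 (SE 0.19, 95% interval -3.76 to -2.92). Over 13 other ways of fitting the counts, which include leaving out each library, the value lay between -3.42 and -3.22. Of the 15292 protein-coding genes kept, 4 had a lower fold change. In whole testis, fewer cells that carry a transcript and less of it per cell cannot be told apart.

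Rxfp1 was the single member of the family to pass the threshold (edgeR quasi-likelihood test, adjusted p under 0.05), where 8.34% of all 20153 genes kept passed in either direction 3.4% as higher and 4.94% as lower; nothing is read from that count, since Rxfp1 was chosen for its fall. Of the other 4 members kept, 0 passed, with 0 at an unadjusted p under 0.05 in edgeR and 0 called by limma-voom. DESeq2 did not call Insl3 or Insl6, and it gave no adjusted p for Rxfp2 and Rln1, which therefore could not be called there. Their intervals are wide for some genes, so a difference is not shown to be absent.

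**Figure D1:**
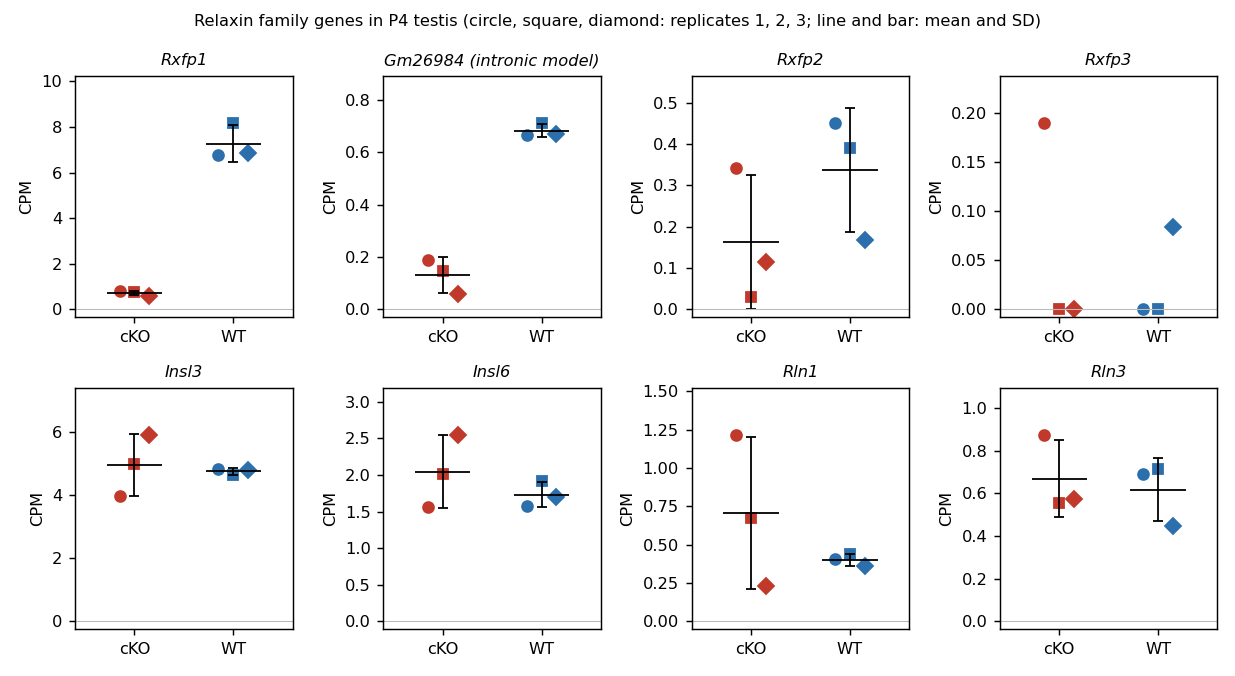
Level of each relaxin family gene in CPM (vertical axis, linear, a separate scale for each gene) in the 3 cKO libraries and the 3 WT libraries, with the mean and SD as a line and bar; none is drawn for Rxfp3, which is at 0 in most libraries. Rxfp1 lies at 0.602 to 0.80 CPM in cKO and 6.76 to 8.20 CPM in WT, while the groups overlap for Rxfp2, Rxfp3, Insl3, Insl6, Rln1 and Rln3.

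Rxfp2 (ENSMUSG00000053368.13, chr5:150018675-150082184, plus strand), the receptor for INSL3, was close to the limit of detection. It had 9, 1 and 4 counts in cKO replicates 1 to 3, against 19, 17 and 6 in WT replicates 1 to 3. The groups overlapped, since cKO replicate 1 lay above WT replicate 3. Rxfp2 averaged 0.162 ± 0.162 CPM in cKO and 0.337 ± 0.15 CPM in WT (SD, n = 3 each; edgeR log2 fold change -1.14, SE 0.73, 95% interval -2.74 to 0.46, adjusted p = 0.395). The fold change was -2.19 without cKO replicate 1 and -0.61 without cKO replicate 2 (edgeR adjusted p = 0.0928 and 0.756), so 1 library decides its size.

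Rxfp3 (ENSMUSG00000060735.4, chr15:11033717-11037991, minus strand), the receptor for RLN3, had 5, 0 and 0 counts in cKO and 0, 0 and 3 counts in WT. All cKO counts came from replicate 1. The sums of 5 in cKO and 3 in WT have exact 95% Poisson intervals of 1.62 to 11.7 and 0.619 to 8.77, which cover counting error only and overlap over most of their length. No fold change was fitted.

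Insl3 (ENSMUSG00000079019.2, chr8:71689214-71690575, plus strand), the Leydig cell hormone, gave no call in either direction. It had 104, 170 and 206 counts in cKO replicates 1 to 3, against 203, 201 and 171 in WT replicates 1 to 3. In CPM the cKO libraries spread from 3.96 to 5.90 around WT libraries that lay between 4.63 and 4.83. The means were 4.95 ± 0.972 CPM in cKO and 4.74 ± 0.104 CPM in WT (SD, n = 3 each; edgeR log2 fold change 0.07, SE 0.16, 95% interval -0.28 to 0.42, adjusted p = 0.857). The sign depended on 1 library, with a fold change of -0.084 without cKO replicate 3.

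Insl3 was counted over only part of its length. Its exon 2 (chr8:71690172-71690575, GRCm38, plus strand) is also an exon of Jak3, a cytokine receptor kinase gene on the same strand, and reads there belong to both genes and were not assigned to Insl3. The counts rest on exon 1 (chr8:71689214-71689432), 219 of 623 bases, which lies inside a Jak3 intron. Its coding part (chr8:71689258-71689432, plus strand, GENCODE transcript on GRCm38) is shown because it is the coding stretch whose reads give the Insl3 values; capitals mark the start codon.
Insl3 exon 1 coding part: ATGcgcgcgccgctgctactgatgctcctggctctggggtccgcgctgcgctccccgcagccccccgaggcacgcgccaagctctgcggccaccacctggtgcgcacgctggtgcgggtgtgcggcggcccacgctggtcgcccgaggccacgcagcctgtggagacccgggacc

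Jak3 averaged 5.06 ± 0.556 CPM in cKO and 2.83 ± 0.499 CPM in WT (SD, n = 3 each; edgeR log2 fold change 0.84, SE 0.18, adjusted p = 0.0120), and the groups did not overlap, as for 28.2% of all genes kept. The call was lost without WT replicate 1 or WT replicate 2 (edgeR adjusted p = 0.0642 and 0.0729). Reads of an unspliced Jak3 transcript could fall in Insl3 exon 1, and their share was not tested. Both genes lie on chromosome 8 between 30 and 95 Mb, a segment whose bounds were chosen with results of these data known; 20.5% of its 507 kept genes were called, against 8.03% of the 19646 kept genes elsewhere.

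Insl3 was also set against a list of Leydig cell markers, whose specificity to that cell type at P4 was not tested. The log2 CPM of Insl3 minus the mean over 14 Leydig cell markers was -4.83, -4.71 and -4.50 in cKO and -4.47, -4.50 and -4.49 in WT. This score uses CPM, which is not divided by gene length. It therefore compares libraries, and does not give the level of Insl3 beside that of the markers. The cKO mean minus the WT mean was -0.19, or -0.12 without cKO replicate 1 and -0.30 with the list median. An exact two-sided permutation test gave p = 0.2, but 3 against 3 libraries cannot go below 0.1, so the test could not have passed the threshold and nothing is read from it. The same score for Rxfp1 was -7.06, -7.33 and -7.68 in cKO and -3.99, -3.68 and -3.97 in WT. Of the 14 Leydig cell markers kept, 4 rose and the other 10 did not pass, among them Dlk1 (log2 fold change 0.12, edgeR adjusted p = 0.0925) and Hsd17b3, which makes testosterone (0.21, edgeR adjusted p = 0.0507). Over all genes kept, 3.4% passed as higher, 685 genes, and 1670 genes did without cKO replicate 1. In that fit 10 Leydig cell markers passed as higher.

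Insl6 (ENSMUSG00000050957.4, chr19:29321344-29325356, minus strand), the germ cell hormone, had 41, 69 and 89 counts in cKO replicates 1 to 3, against 66, 83 and 61 in WT replicates 1 to 3. The cKO libraries lay on either side of the WT libraries. It averaged 2.04 ± 0.495 CPM in cKO and 1.73 ± 0.172 CPM in WT (SD, n = 3 each; edgeR log2 fold change 0.25, SE 0.24, 95% interval -0.27 to 0.77, adjusted p = 0.596). The fold change was 0.40 without cKO replicate 1 and 0.054 without cKO replicate 3. The listed germ cell markers were lower: 17 of 20 fell and the other 3 did not pass, where 4.94% of all genes kept fell. Their list median was -0.76 beside 0.01 over all genes kept, and their summed level was 894 to 967 CPM in cKO and 1598 to 1678 CPM in WT. The difference between Insl6 and that list was not tested, nor was it tested which cells gave the Insl6 counts at P4.

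Rln1 (ENSMUSG00000039097.5, chr19:29331170-29334670, minus strand, 5814 bases from Insl6), the mouse gene for circulating relaxin and so the ligand of RXFP1, had 32, 23 and 8 counts in cKO replicates 1 to 3, against 17, 19 and 13 in WT replicates 1 to 3. The cKO libraries spanned the WT range on both sides. Rln1 averaged 0.707 ± 0.496 CPM in cKO and 0.402 ± 0.0375 CPM in WT (SD, n = 3 each; edgeR log2 fold change 0.78, SE 0.54, 95% interval -0.41 to 1.96, adjusted p = 0.440). The fold change was 0.16 without cKO replicate 1 and 1.21 without cKO replicate 3.

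**Figure D2:**
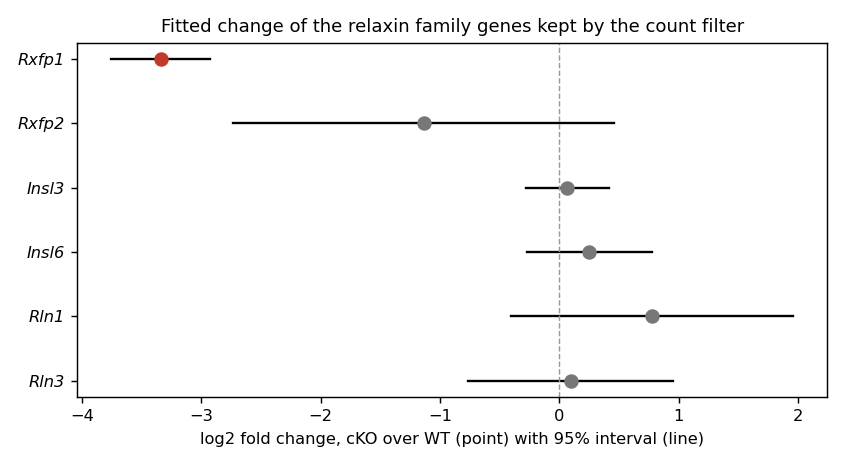
Fitted log2 fold change, cKO over WT (horizontal axis; point), with its 95% interval (line) for the relaxin family genes kept by the count filter. The interval of Rxfp1 runs from -3.76 to -2.92, and those of Rxfp2, Insl3, Insl6, Rln1 and Rln3 cross 0.

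The remaining family genes were weakly counted. Rln3, the brain relaxin, had 23, 19 and 20 counts in cKO and 29, 31 and 16 counts in WT, a log2 fold change of 0.09 (SE 0.40, 95% interval -0.77 to 0.96, edgeR adjusted p = 0.922) whose sign turned without cKO replicate 1 (-0.14) or WT replicate 3 (-0.083). Insl5 had 0, 0 and 2 counts in cKO and 2, 6 and 0 in WT. Its receptor gene Rxfp4 had 0 counts in all 3 cKO libraries and 2, 0 and 0 in WT.

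Per kilobase, Insl3 stood highest of the family, at 22.6 ± 4.44 RPKM in cKO and 21.7 ± 0.476 RPKM in WT over its countable bases (SD, n = 3 each). Insl6 followed with 2.89 ± 0.699 RPKM in cKO and 2.44 ± 0.243 RPKM in WT, and Rln3 with 1.05 ± 0.284 RPKM in cKO and 0.973 ± 0.234 RPKM in WT. Rxfp1 had 0.0717 ± 0.0104 RPKM in cKO and 0.724 ± 0.0798 RPKM in WT. Rln1 had 0.202 ± 0.142 RPKM in cKO and 0.115 ± 0.0107 RPKM in WT, so that Rxfp1 ranked below Rln1 in cKO and above it in WT. Insl5, Rxfp2, Rxfp3 and Rxfp4 lay below these and cannot be ordered at their counts.

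The lower level at Rxfp1 (ENSMUSG00000034009.14, chr3:79641611-79737880, minus strand) included an intronic transcript model. Gm26984 lies inside Rxfp1 on the same strand. Reads of an unspliced Rxfp1 transcript could fall in it, and their share was not tested. Gm26984 shares no exon bases with Rxfp1. It had 5, 5 and 2 counts in cKO and 28, 31 and 24 counts in WT, with no overlap between groups, as for 28.2% of all genes kept. It averaged 0.131 ± 0.0678 CPM in cKO and 0.683 ± 0.0265 CPM in WT (SD, n = 3 each; log2 fold change -2.39, SE 0.53; -2.72 without cKO replicate 1), given as a description because it lies within a gene chosen for its fall.

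The genes beside Rxfp1 on either side did not pass the threshold. 4930579G24Rik averaged 13.4 ± 1.0 CPM in cKO and 13.4 ± 0.71 CPM in WT (log2 fold change 0.01, edgeR adjusted p = 0.978), and Tmem144 differed by -0.02 (edgeR adjusted p = 0.948). Of the 11 other genes kept within 1 Mb, 1 fell, a share of 9.09% beside 8.34% over all genes. That gene was Fnip2, a folliculin partner named after its values were seen, at 24.1 ± 0.699 CPM in cKO and 37.0 ± 1.80 CPM in WT (SD, n = 3 each; edgeR log2 fold change -0.62, SE 0.07, adjusted p = 0.000338).

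**Figure D3:**
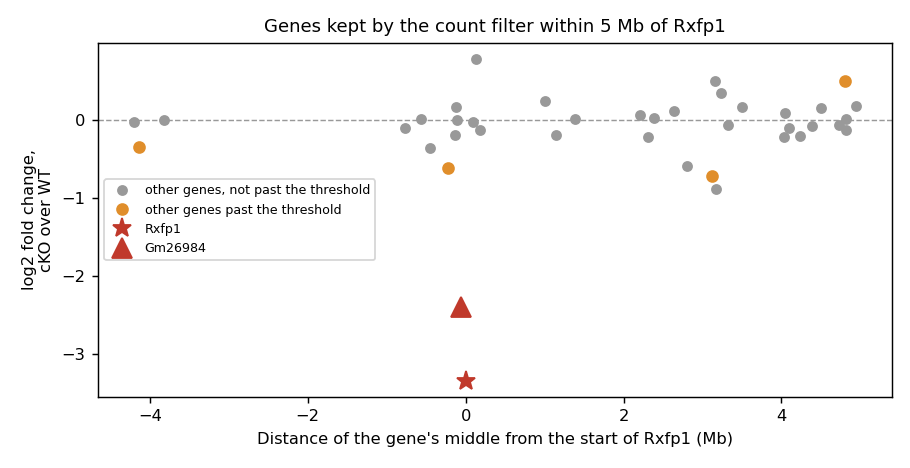
Log2 fold change, cKO over WT (vertical axis), of the genes kept within 5 Mb of Rxfp1 against the distance of each gene's middle from the start of Rxfp1 in Mb (horizontal axis). Rxfp1 (star) lies at -3.34 and Gm26984 (triangle) at -2.39, while the other 38 genes, orange where past the threshold, have a median of -0.03.

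Of the nearest protein-coding genes beside the members other than Rxfp1 and Insl3, those kept gave no call in edgeR. Genes farther from these members are not described here, and nothing is said of calls among them. Fry beside Rxfp2 (log2 fold change -0.10, edgeR adjusted p = 0.472), Adamts12 beside Rxfp3 (0.12, 0.303), Jak2 beside Insl6 (-0.07, 0.602) and Plgrkt beside Rln1 (0.17, 0.193) did not pass; 1 of these 4 had an unadjusted edgeR p under 0.05, and DESeq2 and limma-voom called 0 of them.

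Downstream genes of relaxin receptor signalling moved both ways. Of 62 listed genes 61 were kept, of which 5 rose, 5 fell and 51 did not pass; 16.4% were called, beside 8.34% of all genes, and the median log2 fold change was 0.03. The list was written with earlier results of these data known. Adcy7, an adenylyl cyclase, averaged 231.2 ± 7.91 CPM in cKO and 125.6 ± 1.45 CPM in WT (SD, n = 3 each; log2 fold change 0.88, edgeR adjusted p = 8.1e-07). Mmp2, a gelatinase of the extracellular matrix, averaged 315.4 ± 29.5 CPM in cKO and 175.9 ± 7.76 CPM in WT (0.84, edgeR adjusted p = 1.6e-05). Both lie in the chromosome 8 segment named above. Prkcz, a protein kinase C, averaged 2.54 ± 0.284 CPM in cKO and 4.51 ± 0.203 CPM in WT (-0.83, edgeR adjusted p = 0.00854). These 3 calls held in each of the 13 other fits.

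A further 6 calls of the list were lost without some libraries. Vegfa, the endothelial growth factor, rose (log2 fold change 0.50, edgeR adjusted p = 0.00918) and Pik3cb, a PI3K catalytic subunit, fell (-0.35, 0.0108); both calls were lost without WT replicate 2 or 3. Gnas, the stimulatory G protein subunit, rose (0.31, edgeR adjusted p = 0.0126), a call lost without cKO replicate 2 or any WT library. Adcy6 rose (0.29, edgeR adjusted p = 0.0251), a call lost without cKO replicate 3 or any WT library. The collagen genes Col1a2 (-0.36, edgeR adjusted p = 0.0369) and Col3a1 (-0.30, 0.0436) fell, and both calls were lost without any library other than cKO replicate 1; that of Col3a1 was also lost with a filter of at least 1 CPM in 3 samples (edgeR adjusted p = 0.0521). The highest edgeR adjusted p over the other fits was 0.0705 for Vegfa, 0.0872 for Pik3cb, 0.0717 for Gnas, 0.119 for Adcy6, 0.153 for Col1a2 and 0.186 for Col3a1.

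**Figure D4:**
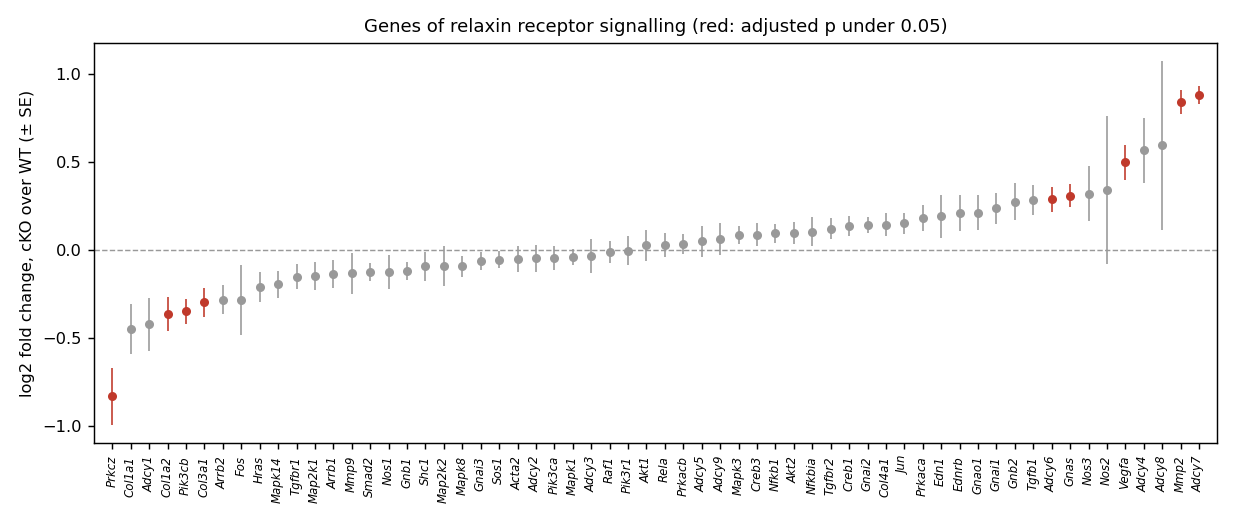
Log2 fold change, cKO over WT, (vertical axis, point, with its SE as a bar) of the relaxin signalling genes kept by the count filter and reported here, ordered by value along the horizontal axis and red where past the threshold. Genes past the threshold lie on both sides of 0, with Adcy7 at 0.88 and Prkcz at -0.83.

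Marker lists of the other testis cell types differed in how many members passed and in which direction. Over all genes kept, 3.4% passed as higher (685 genes) and 4.94% as lower (996 genes). Without cKO replicate 1 these calls numbered 1670 higher and 1705 lower. Among the 18 markers of Sertoli cells, the count was 7 higher, 2 lower and 9 not past the threshold, with a summed level of 5667 to 6265 CPM in cKO and 5121 to 5340 CPM in WT. The higher count was 12 without cKO replicate 1, 2 without cKO replicate 2 or WT replicate 1, and 3 without WT replicate 2 or WT replicate 3, and the lower count was 0 without WT replicate 2 and 1 without cKO replicate 2, WT replicate 1 or WT replicate 3. None of the 12 myoid and smooth muscle markers passed in edgeR, with 3 at an unadjusted p under 0.05 and 0 called by DESeq2 or limma-voom, but 7 passed as lower without cKO replicate 1. Of 10 macrophage markers 4 rose and 6 did not pass (109 to 112 CPM in cKO, 81.7 to 90.6 CPM in WT), a count that was 0 without WT replicate 2, 1 without cKO replicate 2, WT replicate 1 or WT replicate 3, and 2 without cKO replicate 3. Of 14 interstitial stroma markers 1 rose, 2 fell and 11 did not pass; without cKO replicate 1 the counts were 3 higher and 5 lower, and without any other single library 0 were lower. Of 10 endothelial markers 1 rose and 9 did not pass (663 to 722 CPM in cKO, 624 to 645 CPM in WT), with 3 higher and 1 lower without cKO replicate 1 and 0 higher without WT replicate 2. Of 10 mesothelium markers 3 fell (Msln, Gpm6a and Muc16; 1 without any single WT library and 5 without cKO replicate 1) and 7 did not pass (268 to 328 CPM in cKO, 320 to 342 CPM in WT), and their mean log2 CPM was 1.98, 3.11 and 3.10 in cKO replicates 1 to 3 and 3.46, 3.50 and 3.54 in WT replicates 1 to 3. Of 7 excurrent duct markers kept, 2 fell (Krt7 and Epcam; 1 without cKO replicate 2 or any single WT library) and 5 did not pass (34.2 to 42.2 CPM in cKO, 51.6 to 58.0 CPM in WT). No listed marker was at 0 in all libraries. Some lists share a gene, with Krt19 in both the mesothelium and duct lists and Wt1 in both the mesothelium and Sertoli cell lists. The germ cell, mesothelium and duct lists, like Rxfp1, had a lower mean log2 CPM in each cKO library than in each WT library. For the duct list the groups nearly met, at 0.920 in cKO replicate 2 and 0.921 in WT replicate 3. Within cKO, replicate 1 was the lowest library for these lists and the highest for Rxfp1. The part of these lists in the Rxfp1 values was not tested.

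**Figure D5:**
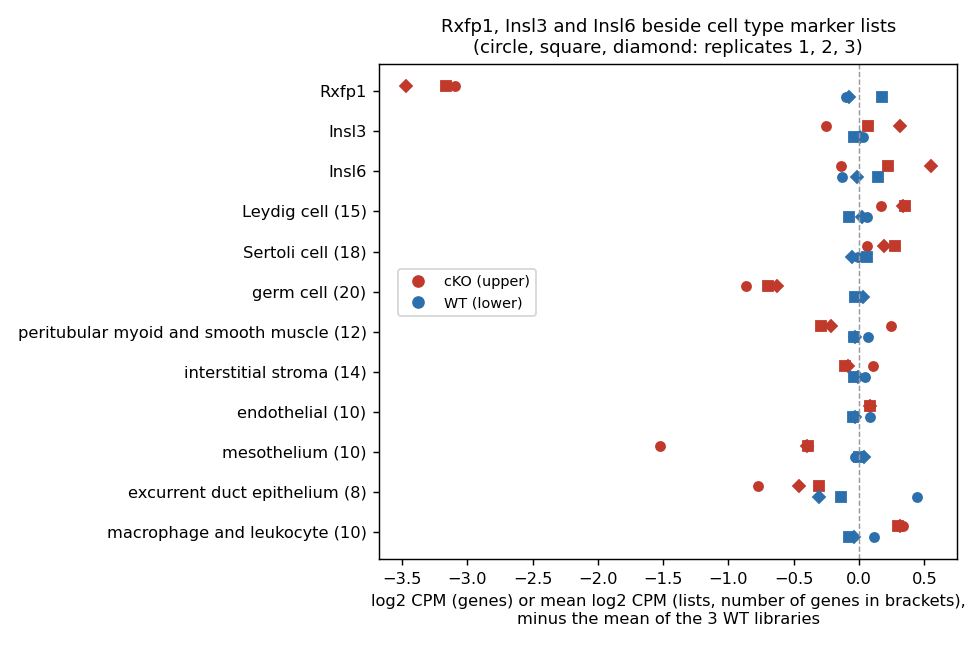
Log2 CPM of Rxfp1, Insl3 and Insl6 and mean log2 CPM of each cell marker list, each minus the mean of the 3 WT libraries (horizontal axis), with 1 point for each cKO library (upper, red) and each WT library (lower, blue). The germ cell markers lie lower in all cKO libraries, and the mesothelium markers lie lowest in cKO replicate 1.

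The genes whose log2 CPM followed Rxfp1 most closely over the 6 libraries were Stk31, Tex15, Zswim5, Ddx4 and Rars, with Pearson r of 1.0, 0.999, 0.998, 0.997 and 0.997. Their log2 fold changes were -1.03, -1.21, -1.08, -1.05 and -0.32, so each follows the split between cKO and WT at a smaller size. Stk31, Tex15 and Ddx4 are also in the germ cell marker list, of which 17 of 20 fell. Tex15 also lies in the chromosome 8 segment named above. The part of germ cell genes in the Rxfp1 values was not tested. At r of 0.9 or more stood 992 of 13595 genes (7.30%), which share the same libraries and depths. For Insl3 the closest genes were Psap, Triobp, Eif4g2, Sf1 and Dyrk1b (r of 0.989 to 0.997), with 486 of 13595 genes at r of 0.9 or more. For Rxfp2 they were Arhgef26, Zfp990, Yars, Creb3l1 and Cbll1 (r of 0.981 to 0.990), with 128 of 13596 genes at r of 0.9 or more. Rxfp2 had 1 to 19 counts per library, so its profile holds much counting error and nothing is read from its list.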

How the data were processed

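Read counts per gene were deposited by the authors as raw counts for 6 libraries. Counting used featureCounts 1.6.4 with the strand set and GENCODE M18, per the file headers; cutadapt, HISAT2 and GRCm38.p5 are named in the submitters' processing notes, and other settings are not given in the sources used here. The molecule label says polyA RNA, whereas the labels' protocol describes random and poly(T) priming with transcript depletion. Counts were fitted in edgeR 4.0.16 (R 4.3.3; TMM, filterByExpr with a minimum count of 10 and total of 15, quasi-likelihood test, Benjamini-Hochberg over 20153 genes, threshold 0.05) and the fit was tested on simulated data. DESeq2 1.42.0, limma 3.58.1 (voom), other scalings and filters, a replicate block and leaving out each library were alternatives. RPKM used gene lengths from the table, and for Insl3 also the bases no other gene covers. Members and lists were chosen with earlier results of these data known. Named genes are the members, Rln3, Insl5, Rxfp4, Dis3l2, overlapping or neighbouring genes within 100 kb, the 5 genes most like Rxfp1, Insl3 and Rxfp2, called signalling genes and up to 2 top markers per list. For the mesothelium and duct lists, the markers named as lower are instead those that fell, so they were picked by their result. Of the signalling genes called, 1 is not reported here.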

Additional observations from a re-analysis of the deposited data

How the results depend on the processing

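Rxfp1 was the single member past the threshold under all 13 alternatives, though Rxfp2 and Rln1 could not pass in DESeq2 or under the 1 CPM filter. Nothing is read from the passing of Rxfp1, since it was chosen for its fall in these same libraries. The signs that turned were those of Insl3 (-0.084 without cKO replicate 3 to 0.19 without cKO replicate 1), Rln3 (-0.14 without cKO replicate 1, -0.083 without WT replicate 3, up to 0.21) and Dis3l2 (0.01 without cKO replicate 1, cKO replicate 2 or WT replicate 1, down to -0.058 without cKO replicate 3). Median log2 fold changes turned for the signalling list (-0.0022 with at least 1 CPM in 3 samples, -0.028 without cKO replicate 3, up to 0.050 without cKO replicate 1) and for the myoid markers (-0.15 without cKO replicate 1, -0.01 without WT replicate 2, -0.0041 without WT replicate 3, up to 0.085 without cKO replicate 2). Over left-out libraries the genes called numbered 623 (without WT replicate 2) to 3375 (without cKO replicate 1), beside 1681 with all, and 2137 in DESeq2; signalling genes higher numbered 2 to 11 and lower 2 to 9. Higher calls were 3 to 10 for Leydig cell markers, 2 to 12 for Sertoli cell markers and 0 to 4 for macrophage markers. Lower calls were 0 to 7 for myoid markers, 0 to 5 for stroma markers, 15 to 18 for germ cell markers, 1 to 5 for mesothelium and 1 to 3 for duct markers. The call of Gm26984 was lost without any library other than cKO replicate 1 (highest edgeR adjusted p 0.0918). Nothing is read from that call, since Gm26984 lies within a gene chosen for its fall. Whether replicate numbers pair the libraries was not settled, since 3 libraries per group cannot decide it. Deviations from the group means correlated at r of 0.0313, 0.0126 and 0.0652 for like numbers 1 to 3. For unlike numbers r was -0.0541 to 0.0225. With the replicate block 1798 genes were called, beside 1681 without it. By CPM, not divided by length, Rxfp1 ranked 2, Insl6 3, Rln3 4, Rxfp2 6, Rxfp3 7 and Insl5 8. Rxfp2, Rln1, Rln3 and Gm26984 have no value under the 1 CPM filter and no adjusted p in DESeq2. The causes were not tested. Rxfp3, Insl5 and Rxfp4 are limited by depth.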
